A study of Homo sapiens with 9 samples.

Results

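Cells were selected from the single-cell RNA sequencing of human extra-embryoids (hEEs) by a fixed rule on raw unique molecular identifiers (UMIs, the tags that mark single captured transcripts). The rule summed UMIs of primitive streak factors and of a further gene. A cell was selected when its UMIs of *TBXT* (ENSG00000164458), *MIXL1* (ENSG00000185155), *EVX1* (ENSG00000106038) and the gene named only by its clone, *AC131094.1* (ENSG00000249945), summed to at least 2. It also needed at least 5 UMIs of *POU5F1*, at most 1 of *HAND1*, and none of *SOX17* or *APOA2*. The rule took 175 of the 19248 cells kept after quality filters. Of these, 123 came from D4 (1.34% [1.12, 1.60] of 9151 kept cells) and 52 from D6 (0.515% [0.385, 0.675] of 10097). Each was set against comparison cells of the same day, which had at least 5 UMIs of *POU5F1*, at least 1 of *SOX2*, at most 2 of *FN1* and none of the 4 summed genes. These numbered 3288 at D4 and 4795 at D6. Among selected cells, *AC131094.1* was the only summed gene present in 97 at D4 and 12 at D6.

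hEEs are aggregates of human pluripotent stem cells that form an inner epiblast-like compartment and an outer hypoblast-like layer. Both libraries came from wild type ESI017, a human embryonic stem cell line that had been grown in human expanded potential (hEP) medium, with treatment labelled as none. Structures with a visible inner and outer compartment were picked on D4 or D6, those of 1 day were pooled from several wells, and 1 droplet library of transcript 3′ ends was made per day. The D4 library held 151712246 UMIs in 10943 barcodes, and the D6 library held 150320228 UMIs in 11483. With 1 library per day there was no replicate, so no test was possible, day and library cannot be told apart, and each 95% interval in square brackets covers counting error only.

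The primitive streak is the site on the epiblast where cells leave the epithelium at gastrulation and become mesoderm or endoderm. In mammals it is set up by WNT and NODAL signals, and its cells switch on T-box factors such as *TBXT* (Brachyury) and *EOMES* and homeobox factors such as *MIXL1* and *EVX1*. As cells leave the epiblast, *SOX2* is lost before *POU5F1*.

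The summed genes that placed cells in the selection differed between the libraries. As the rule used these genes, their shares describe the selection and do not test a streak identity. At D6, *TBXT* was found in 25 of 52 selected cells (48.1% [34, 62.4]), *MIXL1* in 26, *EVX1* in 14 and *AC131094.1* in 34. At D4, *TBXT* was found in 3 of 123 cells (2.44% [0.506, 6.96]), *MIXL1* in 19 and *EVX1* in 11, whereas *AC131094.1* was found in 113. *AC131094.1* supplied 82.8% of the summed UMIs of the D4 cells, and was the only summed gene present in 97 of them (1.06% of kept cells). At D6 it supplied 42.0%, and 12 cells had it alone. A pair of summed genes or more was present in 32 of 52 cells at D6 and in 21 of 123 at D4. The cells are therefore called selected cells, after the rule, and those of D4 were led by *AC131094.1* and not by the streak factors. *SERPINB9*, a serine protease inhibitor given as a further marker of these cells and not used by the rule, had a UMI in 67 selected cells at D4 (54.5% against 16.4% of comparison cells) and in 35 at D6 (67.3% against 18.4%). It was also in 56.6% and 60.8% of the hypoblast-type cells defined further below, so it was not particular to the selected cells.

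**Figure D1:**
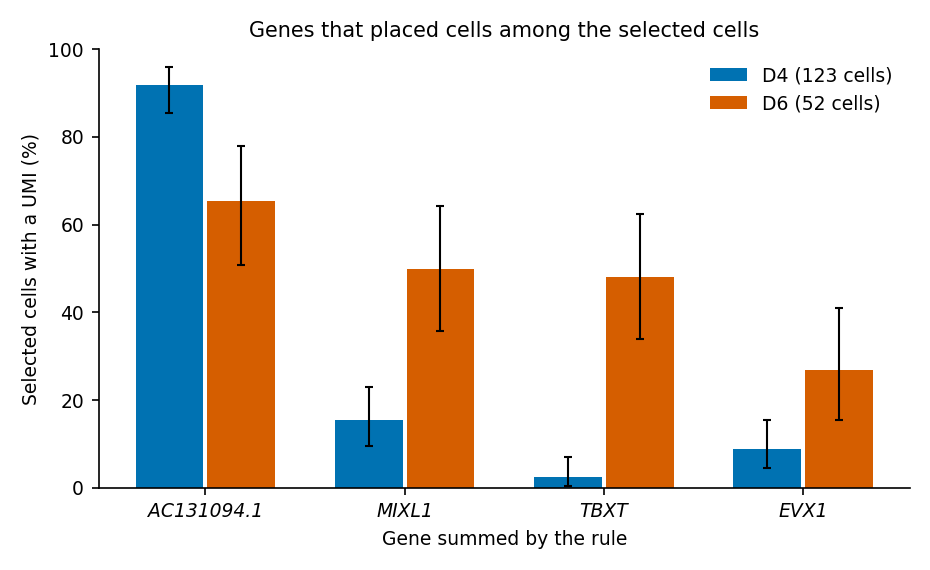
Selected cells with a UMI of each of the 4 summed genes, as percent of selected cells with exact binomial 95% intervals, for D4 (123 cells) and D6 (52 cells). *AC131094.1* was found in 113 cells at D4 against 3 with *TBXT*, while 25 of the D6 cells had *TBXT*.

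Just inside the threshold, 44 cells at D4 and 15 at D6 had a sum of 2. Just outside it, 250 cells at D4 and 164 at D6 that passed the other gates had a sum of 1. The highest sum in a single cell was 25 at D4 and 31 at D6, and the medians over selected cells were 3 and 4. Most kept cells with a sum of at least 2 were lost to the gates: 844 cells at D4 and 1226 at D6 reached that sum, and 680 and 1114 of them held *SOX17* or *APOA2*, markers of the hypoblast lineage. Among the cells lost only through these markers, Scrublet called 21 of 123 doublets at D4 and 75 of 111 at D6. Of the rest, 39 cells at D4 and 20 at D6 had too little *POU5F1*, and 2 and 40 had too much *HAND1*, a mesoderm and amnion factor. Over all kept cells, *TBXT* was found in 82 at D4 and 181 at D6, so that the rule held 3 and 25 of them. The selected cells are thus those of strict gates, not all cells with *TBXT*.

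Selected cells were somewhat deeper than comparison cells, with median UMIs of 17458 against 14935.5 at D4 and 15293.5 against 14177 at D6. Their median mitochondrial share was 4.59% against 3.74% at D4 and 3.49% against 1.91% at D6. Doublet calls fell on 4 of 123 selected cells at D4 (3.25% against 0.517% of comparison cells), 3 of them among the 26 cells with a transcription factor of the rule (11.5%). At D6 they fell on 1 of 52 (1.92% against 1.23%). The libraries shared 40 barcodes, none of them in selected cells. The closing section gives the counts of genes past 2-fold with doublets left out, with cells matched on depth and with levels from thinned cells. The part of mitochondrial share in the levels was not tested.

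To ask whether the summed genes go together, cells that passed the other gates were taken without regard to the sum, 3196 at D4 and 4090 at D6. At D6, 33 of these had *TBXT*, and 14 of the 33 also had *MIXL1* (42.4% [25.5, 60.8]), against 2.07% of the cells without *TBXT*. *EVX1* was found in 27.3% [13.3, 45.5] against 1.26%, and *AC131094.1* in 42.4% [25.5, 60.8] against 1.43%. The other summed genes were thus found at D6 in a larger share of the cells with *TBXT* than of those without, while the median depth was 15446 UMIs with *TBXT* and 13923 without. At D4 this held less for *AC131094.1*: of the 238 gated cells with it, 3.78% [1.74, 7.06] had *MIXL1*, against 2.54% [2.00, 3.17] without it, and these intervals overlap. Only 5 gated cells of D4 had *TBXT*, 2 of them with *MIXL1*.

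The promoters of *MIXL1* and of *SP5*, a zinc finger factor and direct WNT target, are shown because *MIXL1* is 1 of the summed genes, *SP5* was among their leading genes, and each carries a match to the TCF/LEF motif, the site read by the nuclear effectors of WNT signalling. The 250 bases before the RefSeq start are given 5′ to 3′ on the plus strand (GRCh38.p14), at chr1:226223414-226223663 for *MIXL1* and chr2:170715087-170715336 for *SP5*, with the match in capitals.
MIXL1: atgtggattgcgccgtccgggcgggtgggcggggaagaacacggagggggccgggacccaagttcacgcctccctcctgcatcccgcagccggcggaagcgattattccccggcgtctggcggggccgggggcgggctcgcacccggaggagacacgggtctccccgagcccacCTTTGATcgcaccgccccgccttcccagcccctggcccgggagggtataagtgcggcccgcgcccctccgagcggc
SP5: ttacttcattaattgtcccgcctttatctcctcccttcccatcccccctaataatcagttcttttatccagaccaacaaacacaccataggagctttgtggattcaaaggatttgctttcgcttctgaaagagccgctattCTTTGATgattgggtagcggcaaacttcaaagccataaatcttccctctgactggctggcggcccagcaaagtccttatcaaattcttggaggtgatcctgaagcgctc
The motif was searched as ATCAAAG on both strands of 300-base windows from 250 bases before the start to 50 after. Both matches lie on the opposite strand, so they read CTTTGAT, and they begin 76 and 109 bases before the start. Of the 35116 RefSeq promoters of this length, 919 (2.62%) held the motif, and of the 28 promoters found for 19 of 24 genes (the summed genes, *SERPINB9* and those leading on either day), 3 held it, those of *MIXL1*, *SP5* and *GABRB2*. The T-box motif AGGTGTGA was in 344 promoters (0.98%) and in 1 of the 28, that of *IL32*. A match describes these letters and is not a binding site.

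Levels are UMIs of a gene summed over the cells of a class and scaled to 1000000 UMIs of that class (CPM), and log2 ratios are selected over comparison cells of the same day. Of the genes compared (a mean level of at least 10 CPM over both classes, genes of the rule left out), 213 of 8533 were at least 2-fold higher in the selected cells of D6, a background of 2.5%, and 105 were at least 2-fold lower (1.23%). At D4 the numbers were 116 of 8267 (1.4%) and 23 (0.278%). A gene that is low in comparison cells passes this limit only by being higher in selected cells. The gene lists were therefore counted over genes at 10 CPM or more in comparison cells alone, a limit chosen after seeing the data, under which 107 of 8529 genes were higher at D6 (1.25%) and 165 lower (1.93%), against 78 of 8317 (0.938%) and 51 (0.613%) at D4. This limit in turn leaves out genes found mainly in selected cells and keeps those found mainly in comparison cells. The median log2 ratio over all compared genes was 0.04 at D6 and -0.03 at D4.

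The 12 leading genes of D6 (the highest log2 ratios among compared genes at 20 CPM or more and in at least 10% of selected cells) included the ligands *WNT8A*, *NODAL*, *WNT3* and *FGF17* and the transcription factors *SP5*, *MESP1* and *EOMES*. *WNT8A*, a WNT ligand of the early streak, was at 20.4 [11.9, 32.7] CPM in selected cells and 0.0850 [0.0312, 0.185] in comparison cells, for a log2 ratio of 7.84 [6.50, 9.54]. It was found in 14 of 52 selected cells (26.9%) and in 0.125% of comparison cells. *WNT3*, the ligand needed for streak formation in the mouse (chr17:46762506-46818692), was at 26.5 [16.6, 40.1] CPM against 0.949 [0.736, 1.21], with a UMI in 17 cells. *WLS*, which carries WNT proteins to the cell surface for secretion, was at 44.5 CPM against 1.42 (log2 ratio 4.99 [4.39, 5.53]) and was found in 25 cells. The WNT ligands and the carrier are named here as leading genes, picked by their ratios from levels under 10 CPM in comparison cells. Their low levels there thus follow in part from that choice.

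*NODAL*, the TGFβ family ligand that patterns the streak (chr10:70431936-70447951), was at 80.6 [62.4, 102] CPM in selected cells of D6 against 2.10 [1.77, 2.46], for a log2 ratio of 5.27 [4.83, 5.69], with a UMI in 31 of 52 cells. *FGF17*, a ligand of the FGF8 subfamily, was at 71.0 [54.0, 91.5] CPM against 3.51 [3.09, 3.98], for a log2 ratio of 4.35 [3.90, 4.75], in 17 cells. Of its 59 UMIs, 23 were in 1 cell, and its log2 ratio was 3.68 without the cell with most *CER1*. *FGF4* was at 15.6 CPM against 4.83 (log2 ratio 1.75 [0.77, 2.49]) and *BMP4*, a ligand that induces the streak upstream of WNT, at 18.0 against 8.60 (1.12 [0.22, 1.80]). The log2 ratio of *BMP4* was 0.51 under the *SOX2* and *FN1* gates and 0.99 in the cells without *GATA6* or *FOXA2*, under 2-fold in both. That of *FGF4* was 0.75 with a sum of at least 1, also under 2-fold. *CER1*, a secreted inhibitor of NODAL, BMP and WNT, had 142 UMIs in 5 selected cells of D6, but 137 of them were in 1 cell, called a doublet. With doublets left out its log2 ratio went from 6.91 to 2.23. Of the 20 signalling genes of the streak listed, only *CYP26A1* and *GDF3* reached 10 CPM in comparison cells of D6, and neither was 2-fold higher or lower. The signals described here were all below that level in comparison cells, so no count over the list is given.

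*SP5*, *EOMES*, *MESP1* and *LHX1* were higher at D6, from levels under 10 CPM in comparison cells. *SP5* was at 129.9 [107, 157] CPM against 5.17 [4.65, 5.73], for a log2 ratio of 4.66 [4.33, 4.96], with a UMI in 34 of 52 selected cells (65.4%) and in 6.4% of comparison cells. *EOMES*, the T-box factor of early mesendoderm (chr3:27715953-27722713), was at 61.3 [45.7, 80.6] CPM against 2.96 [2.57, 3.39] (log2 ratio 4.38 [3.90, 4.82]), in 25 cells. *MESP1*, a basic helix-loop-helix factor of nascent mesoderm, was at 32.5 [21.4, 47.2] CPM against 1.56 [1.28, 1.88] (log2 ratio 4.40 [3.72, 5.00]), in 9 cells. *LHX1* was at 20.4 CPM against 1.29, on 17 UMIs in 5 cells, 9 of them in 1 cell, and without that cell its level was 9.86. Of 19 listed streak factors outside the rule, 4 were at 10 CPM or more in comparison cells, none of them higher and *OTX2* lower.

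Some well known streak genes stayed below the level that could be compared, and *HES1* did not reach 2-fold. *WNT3A* had 8 UMIs in 6 selected cells of D6 (9.62 CPM against 0.0708 in comparison cells) and none at D4, which allows up to 1.36 CPM (3 counts). *CDX1* and *CDX2*, caudal homeobox factors of the posterior streak, had UMIs in 5 and 3 selected cells of D6, in 1 and 0 of D4. *TBX6* was found in 6 cells of D6 and *FGF8* in 5. *HES1*, at 30.1 CPM against 24.7, had a log2 ratio of 0.31 [-0.35, 0.85], whose interval spans 0.

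Among the other leading genes of D6, *SERPINB9* was not within the first 12 and was at 142 [117, 170] CPM against 18.7 [17.7, 19.7] (log2 ratio 2.93 [2.64, 3.20]). *GABRB2*, a GABA receptor subunit, had a log2 ratio of 5.76 [4.77, 6.67] on 17 UMIs in 8 cells, 8 of them in 1 cell, without which its level went from 20.4 to 11.2 CPM. *GAD1*, the enzyme that makes GABA, had a log2 ratio of 3.67 [2.81, 4.38] in 12 cells. *SAMD3* had a log2 ratio of 4.57 [3.75, 5.27], and *AC108052.1*, known only by its clone name, one of 5.01 [4.52, 5.46] in 23 cells.

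The genes lower in the D6 selected cells included 5 of the 19 pluripotency genes and 2 of the 6 neural ectoderm genes at 10 CPM or more in comparison cells, *OTX2* and *HESX1* being the latter, where 1.93% of all such genes were lower. *SFRP1*, a secreted WNT antagonist, was at 46.9 [33.4, 64.1] CPM against 306 [302, 310.4], with the lowest log2 ratio of the named genes compared at D6, -2.69 [-3.20, -2.26]. *UTF1*, a chromatin factor of pluripotent cells, was at 21.6 CPM against 76.1 (-1.77 [-2.57, -1.15]). *OTX2*, a factor of epiblast and anterior neural cells, was at 13.2 against 43.5 (-1.65 [-2.72, -0.88]), and *HESX1*, an anterior forebrain factor, at 7.22 against 24.7 (-1.66 [-3.23, -0.65]). With levels from thinned cells the log2 ratio of *HESX1* was -0.30, no longer past 2-fold. The further lower genes, *GPR176*, *ZSCAN2*, *MIAT*, *TRIML2*, *RASGRP2*, *DDX25*, *C9orf116* and *UPK1A*, had log2 ratios from -2.39 to -1.65, on few UMIs, between 3 and 7 each. Of 20 listed pluripotency genes outside the rule, the 19 counted held 5 lower (*OTX2*, *PRDM14*, *TERF1*, *USP44* and *UTF1*) and none higher, with a median log2 ratio of -0.45. Under the *SOX2* and *FN1* gates *TERF1* was at -0.59 and *USP44* at -0.90 on the log2 scale, no longer past 2-fold. *TERF1*, which binds telomeres, was at 382 CPM against 769.6, *USP44* at 125 against 293, and *PRDM14* at 3.61 against 18.4. *NANOG* was at 52.9 CPM against 63.7, for a log2 ratio of -0.25 [-0.73, 0.16] that spans 0.

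*SOX2* and *FN1* were gates of the comparison cells only, so their levels are described with cells of the same gates as the selected cells and a sum of 0. *SOX2* was at 152 CPM in selected cells of D6 and 281 in such cells, for a log2 ratio of -0.88 [-1.16, -0.64]. At D4 the levels were 249.8 and 269.7, for a log2 ratio of -0.11 [-0.24, 0.01]. *FN1*, which encodes fibronectin, was at 81.8 CPM against 27.0 at D6 and 39.4 against 26.1 at D4.

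*CER1* led at D4, at 137 [122, 153] CPM against 8.0 [7.23, 8.82], for a log2 ratio of 4.10 [3.88, 4.32], with a UMI in 27 of 123 cells. Of its 303 UMIs, 109 were in 1 cell, and without that cell the log2 ratio was 3.47. *FGF17* was at 66.5 against 5.52 (3.59 [3.29, 3.89]), *NODAL* at 29.9 against 4.66 (2.69 [2.26, 3.08]) and *SERPINB9* at 93.7 against 14.1 (2.73 [2.50, 2.96]). *SP5* was at 17.6 against 4.33, for a log2 ratio of 2.04 [1.5, 2.53]. *WNT8A* had 1 UMI in 1 cell, and *WNT3* was at 12.2 CPM against 2.28 (2.44 [1.76, 3.04]), under the mean level needed to be compared. *EOMES* was at 19.5 CPM against 4.66, for a log2 ratio of 2.07 [1.56, 2.53]. In the 105 cells without a UMI of *GATA6* or *FOXA2*, factors of endoderm and hypoblast, it was -0.69, and under the *SOX2* and *FN1* gates of the comparison cells it was -0.10. The log2 ratios of *CER1* and *FGF17* in these 105 cells were 2.71 and 1.28, lower but still past 2-fold.

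*ANXA1*, *CAV1* and *IL32* were also among the leading genes of D4. *ANXA1*, an annexin, was at 102 [89.4, 116] CPM against 11.7 [10.8, 12.7] (log2 ratio 3.13 [2.90, 3.35]), in 47 of 123 cells. *CAV1*, the main protein of caveolae, was at 146 against 28.0 (2.38 [2.20, 2.56]) in 73 cells. The cytokine *IL32* was at 20.4 against 4.19 (2.29 [1.78, 2.75]). The calls of *CAV1* and *ANXA1* did not hold without *AC131094.1* in the sum, where the log2 ratio was 0.79 for *CAV1* and -0.15 for *ANXA1*, in 13 cells. *IL32* had no UMI in these 13 cells, so its log2 ratio there, -0.99, shows no direction. In the 26 cells with a transcription factor, *CAV1* (1.32) and *ANXA1* (1.64) were still past 2-fold. Of the 17 *ANXA1* UMIs there, 7 were in 1 cell, and without it the level was 21.9 CPM, under 2-fold. *AC108052.1*, *SLC7A14-AS1*, *AL009031.1* and *TXNRD2* were also among the highest, with log2 ratios from 2.20 to 3.41. The lowest genes reported spanned -1.51 (*RMST*) to -1.06 (*FAM229B*) and included *PTCH1*, the hedgehog receptor, at 9.05 against 22.9 CPM. Without *AC131094.1* in the sum, *FAM229B* was at 0.13 and *PTCH1* at 0.018 on the log2 scale, no longer lower.

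Of the 20 streak signals, 4 were at 10 CPM or more in comparison cells of D4, and 3 of these were higher (*CYP26A1*, *GDF3* and *LEFTY2*, where 0.938% of all such genes were). *CYP26A1*, which breaks down retinoic acid, had a log2 ratio of 0.56 in the cells without *GATA6* or *FOXA2* and 0.81 under the *SOX2* and *FN1* gates, no longer past 2-fold. None of the 4 streak factors at that level was higher or lower. None of the 19 pluripotency genes was 2-fold lower or higher (median -0.14). *NANOG* was at 53.8 CPM against 53.1.

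The D4 selected cells differed among themselves. The 26 cells with *TBXT*, *MIXL1* or *EVX1* and the 97 with *AC131094.1* alone are set side by side here as a description, since the split used summed genes. *CER1* was at 406 CPM in the former and 62.9 in the latter, *FGF17* at 209 and 27.1, and *NODAL* at 83.7 and 15.0. Of the *CER1* UMIs of the 26 cells, 109 of 194 were in 1 cell, and without it the level was 184. *EOMES* was at 73.2 against 4.62 CPM, for a log2 ratio of 3.92 [2.85, 5.31], and *LHX1* at 41.8 against 1.15. Without the cell with most of the gene, these levels in the 26 cells were 45.6 for *EOMES* and 19.5 for *LHX1*. *SERPINB9* was at 171 against 72.2 and *SP5* at 41.8 against 11. These genes were thus higher in the cells with a transcription factor, but several of them were also present in hypoblast-type cells, as given below. Doublet calls fell on 3 of the 26 cells (11.5%) and 1 of the 97 (1.03%). The 26 cells also held more of the endoderm factors, *GATA6* at 33.5 against 3.46 CPM and *FOXA2* at 18.8 against 6.35. Of the 16 *GATA6* UMIs, 9 were in 1 cell, and without it the level was 15.2. *ANXA1* and *CAV1* were lower in the 26 cells. *ANXA1* was at 35.6 against 121 CPM (21.9 without its top cell) and *CAV1* at 69.0 against 167. *IL32* had no UMI in the 26 cells, which allows up to 6.27 CPM, and 45 UMIs in 21 of the 97. *SOX2* was at 224 and 257 CPM.

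**Figure D2:**
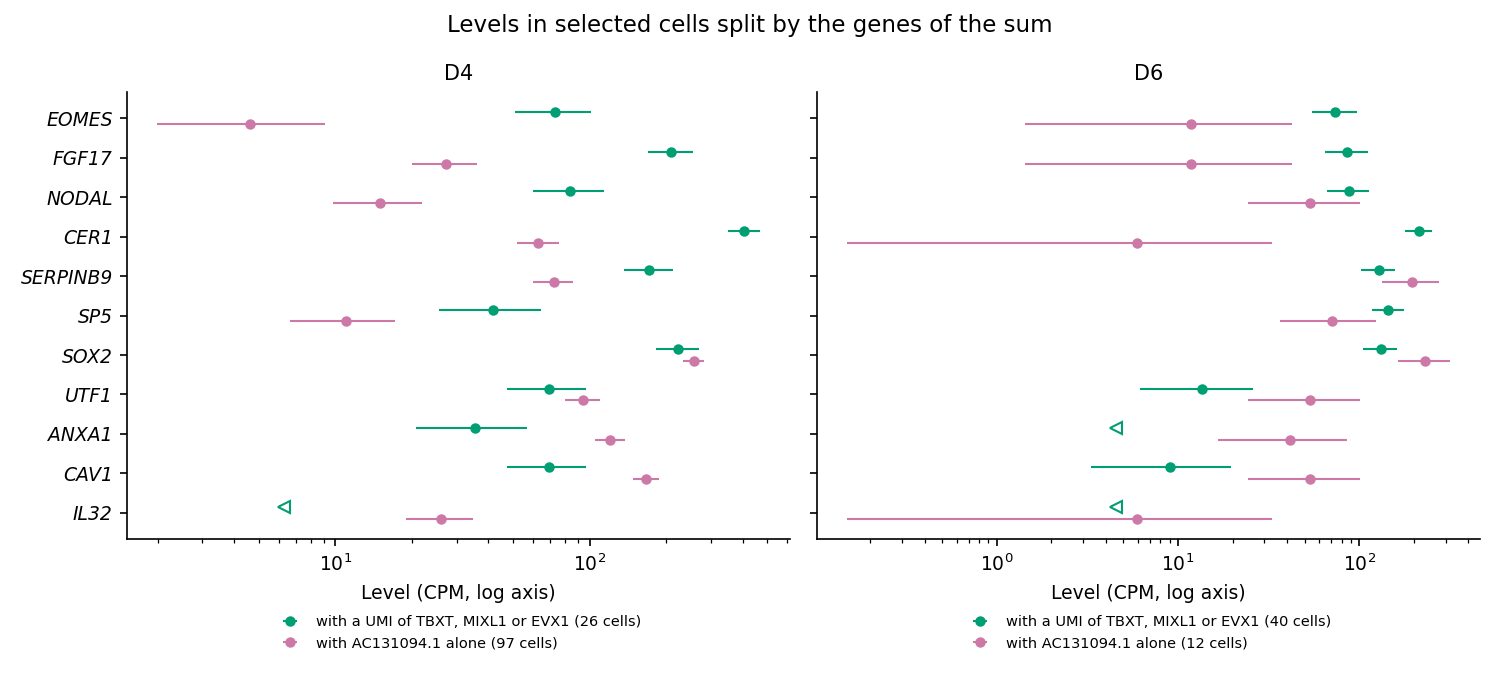
Levels in CPM on a log axis with 95% counting intervals in selected cells with *TBXT*, *MIXL1* or *EVX1* and in those with *AC131094.1* alone, for D4 (26 and 97 cells) and D6 (40 and 12 cells). Open triangles mark the level of 3 counts where no UMI was found. At D4 *EOMES* was at 73.2 CPM in the first set and 4.62 in the second, and *ANXA1* at 35.6 and 121.

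At D6 the 40 cells with a transcription factor and the 12 with *AC131094.1* alone differed in the same genes in part. *EOMES* was at 74.0 and 11.8 CPM, *FGF17* at 86.0 and 11.8, and *SP5* at 145 and 71.0. Without the cell with most of the gene, *FGF17* was at 53.0 in the 40 cells and *SP5* at 43.7 in the 12. *SERPINB9* did not follow D4, with log2 ratios over comparison cells of 2.79 in the 40 and 3.41 in the 12. It had a UMI in 29 of the 40 and 6 of the 12. *MESP1* was at 40.8 CPM in the 40 cells and had no UMI in the 12, which allows up to 17.8. *SOX2* was at 131 and 231 and *UTF1* at 13.6 and 53.3. *ANXA1* had no UMI in the 40 cells, which allows up to 4.53 CPM, and was at 41.4 CPM in the 12, on 7 UMIs in 3 cells, 4 of them in 1 cell, without which it was at 19.3.

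Within the D6 cells, those with *TBXT* (25) and those with *MIXL1* but not *TBXT* (12) also differed. *SOX2* was at 60.3 CPM with *TBXT* and 276 in the others (log2 ratio -2.18 [-2.93, -1.5]). *SFRP1* was at 7.24 and 143 (-4.11 [-6.66, -2.62]) and *VIM*, which encodes the intermediate filament vimentin, at 205 and 677. *NODAL* was at 125 and 28.6 (2.03 [0.92, 3.64]), *EOMES* at 101 and 33.4, and *SAMD3* at 38.6 and 4.77. As a description, since the split used summed genes, the cells with *TBXT* held more *NODAL* and *EOMES* and less *SOX2* and *SFRP1*. Doublet calls fell on 1 of the 12 cells (8.33%) and 0 of the 25, and the levels here include that cell. *CER1* was at 2.41 and 667 CPM, the latter through the single cell already named.

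Levels also went with the size of the sum. In gated cells of D6 with a sum of 0, 1, 2, 3 to 4 and 5 or more, *SP5* was at 6.28, 22.8, 74.1, 135 and 161 CPM. *NODAL* was at 2.47, 9.45, 34.9, 109 and 91.1. *SFRP1* was at 294, 229, 87.2, 34.9 and 29.5, and *SOX2* at 281, 271, 288, 162 and 61.7. These classes held 3874, 164, 15, 14 and 23 cells. *SP5* and *NODAL* were thus higher already in cells with a sum of 1, just outside the rule, whereas *SOX2* was lower only from a sum of 3. *SFRP1* in the last 3 classes rested on few cells, and without the cell with most of it was at 53.1, 14.3 and 8.53. At D4 *SP5* was at 5.00, 15.6, 10.4, 16.4 and 30.6 CPM and *CER1* at 7.74, 22.8, 46.7, 109 and 319. In the last 3 classes 1 cell held 15 of 36, 41 of 100 and 109 of 167 *CER1* UMIs, and without it the levels were 27.8, 65.8 and 115. *SOX2* at D4 was at 269.7, 258, 275, 254 and 204.

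**Figure D3:**
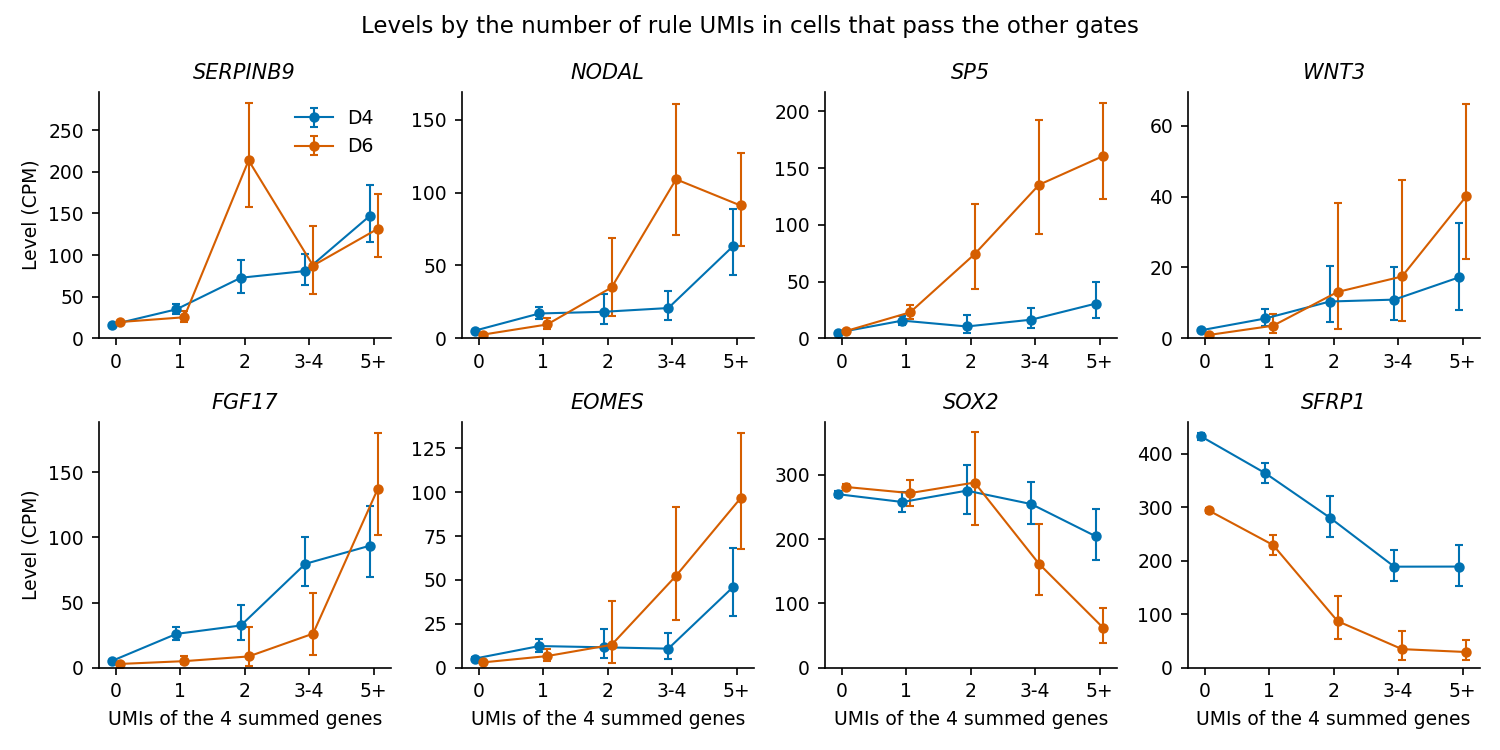
Level in CPM with 95% counting intervals of 8 genes in gated cells by the summed UMIs of *TBXT*, *MIXL1*, *EVX1* and *AC131094.1*, for D4 and D6; the rule selects sums of 2 or more. At D6 *SP5* goes from 6.28 to 161 CPM and *SOX2* from 281 to 61.7.

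Other listed groups also held genes past 2-fold, and are counted over genes at 10 CPM or more in comparison cells, with the background given above. Of 12 such genes of epithelial and mesenchymal state at D6, *CDH2* (N-cadherin, 51.7 against 19.3 CPM) was higher, and at D4 2 of 13, *CDH2* and *RHOB*. The log2 ratio of *CDH2* at D4, 1.14, was 0.80 in the cells without *GATA6* or *FOXA2* and 0.91 under the *SOX2* and *FN1* gates, and that of *RHOB*, 1.27, was 0.73 without *AC131094.1* in the sum, so that neither call held. At D6 that of *CDH2*, 1.44, was 0.94 with levels from thinned cells. *CDH1*, E-cadherin, was at 93.8 CPM against 90.6 at D6 and 34.8 against 44.5 at D4. *SNAI1*, a repressor of *CDH1*, had 8 UMIs at D6 and was too low to compare. *VIM* was at 1962 CPM against 1107 at D4 and 385 against 518 at D6. Of 3 WNT targets and feedback genes, none was higher at D4 and *TCF7* at D6 (40.9 against 17.3 CPM), while *AXIN2*, a broad WNT target, had a log2 ratio of 0.49 [-0.34, 1.14] at D6. None of the 8 BMP genes at D6 or the 7 at D4 was higher or lower. Of 15 FGF pathway genes, *IER3* was higher on both days, and *DUSP6* and *FGFR2*, a feedback phosphatase and a receptor, were lower at D6. Under the *SOX2* and *FN1* gates these were at -0.82 and -0.63 on the log2 scale, no longer past 2-fold. Of 10 NODAL pathway genes at D4, *GDF3* and *LEFTY2* were higher, and of 8 at D6 none was. *LEFTY2*, a NODAL antagonist, was at 96.4 CPM against 29.2 at D4 and had 3 UMIs at D6.

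Markers of other cell types that the gates could let through were mostly under 10 CPM in comparison cells, so that few could be counted. Of 28 hypoblast genes, 8 reached that level on each day, led by *APOE*, and *SERPINE2* alone was higher (342 against 95.5 CPM at D4, 241 against 57.5 at D6), and 7 were at 0 at D4 and 11 at D6. Their summed level was 1759 CPM in selected cells against 1369.8 in comparison cells at D4, and 1626 against 1527 at D6. *APOA1* was at 57.7 CPM in selected cells of D6 against 78.9 in comparison cells and 12156 in hypoblast-type cells. Those cells have a UMI of *SOX17* or *APOA2*, under 5 of *POU5F1* and more than 2 of *FN1*, and numbered 3828 at D4 and 3600 at D6. Of 15 definitive endoderm genes, only *RHOBTB3* reached it, and was higher on both days. The summed level of the 15 was 267 CPM against 56.0 at D4 and 333 against 49.0 at D6. *CER1*, the most abundant of them, was at 137 and 171, with most of its D6 UMIs in 1 cell. *EOMES*, described above, is also among the 15. With doublets left out, the log2 ratio of *RHOBTB3* at D6 went from 1.41 to 0.36, no longer past 2-fold, and at D4 it was -0.78 in the cells without *GATA6* or *FOXA2*. Of 29 mesoderm genes, none reached it at D4 and 2 at D6, neither of them higher or lower. The summed level of the 29 was 84.2 CPM against 39.0 at D4 and 126 against 55.7 at D6. *MESP1* was the most abundant of them at D6, at 32.5 CPM. *PDGFRA* had 4 UMIs at D6, and *KDR* at D4 had a log2 ratio of 1.23, and 0.97 in the cells with a transcription factor. Of 17 amnion genes, *ANXA3* alone reached it at D4, and was higher, and *TFAP2A* alone at D6, with a log2 ratio of -0.13. The summed level of the 17 was 123 CPM against 66.7 at D4 and 123 against 76.5 at D6, and 4 and 7 of them were at 0. *ANXA3*, an annexin, was at 65.6 against 19.6 CPM at D4 and 19.2 against 7.38 at D6, where 7 of 16 UMIs were in 1 cell, without which it was at 11, under 2-fold. *MSX2*, the most abundant of the 17 at D6, was at 31.3 CPM, from under 10 CPM in comparison cells. Its log2 ratio at D6 was 1.71, and 0.60 in the cells with *AC131094.1* alone. *TFAP2C*, listed for amnion and germ cells, was at 18.6 against 7.42 CPM at D4 and 21.6 against 9.75 at D6. Its log2 ratio at D4, 1.34, was -0.23 without *AC131094.1* in the sum, and at D6, 1.19, it was 0.78 under the *SOX2* and *FN1* gates. *ISL1* was at 0 in the D6 cells, which allows up to 3.61 CPM, and *NANOS3* had 4 UMIs. None of the 23 S phase and 23 G2M genes reached 2-fold on either day. Of the dissociation stress genes, *IER3* was higher on both days and *JUN* at D6, and no other of the 12 counted at D4 or 14 at D6. The log2 ratio of *JUN*, 1.22, was 0.91 with doublets left out, under 2-fold. The part of these other markers in the levels of the leading genes was not tested.

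**Figure D4:**
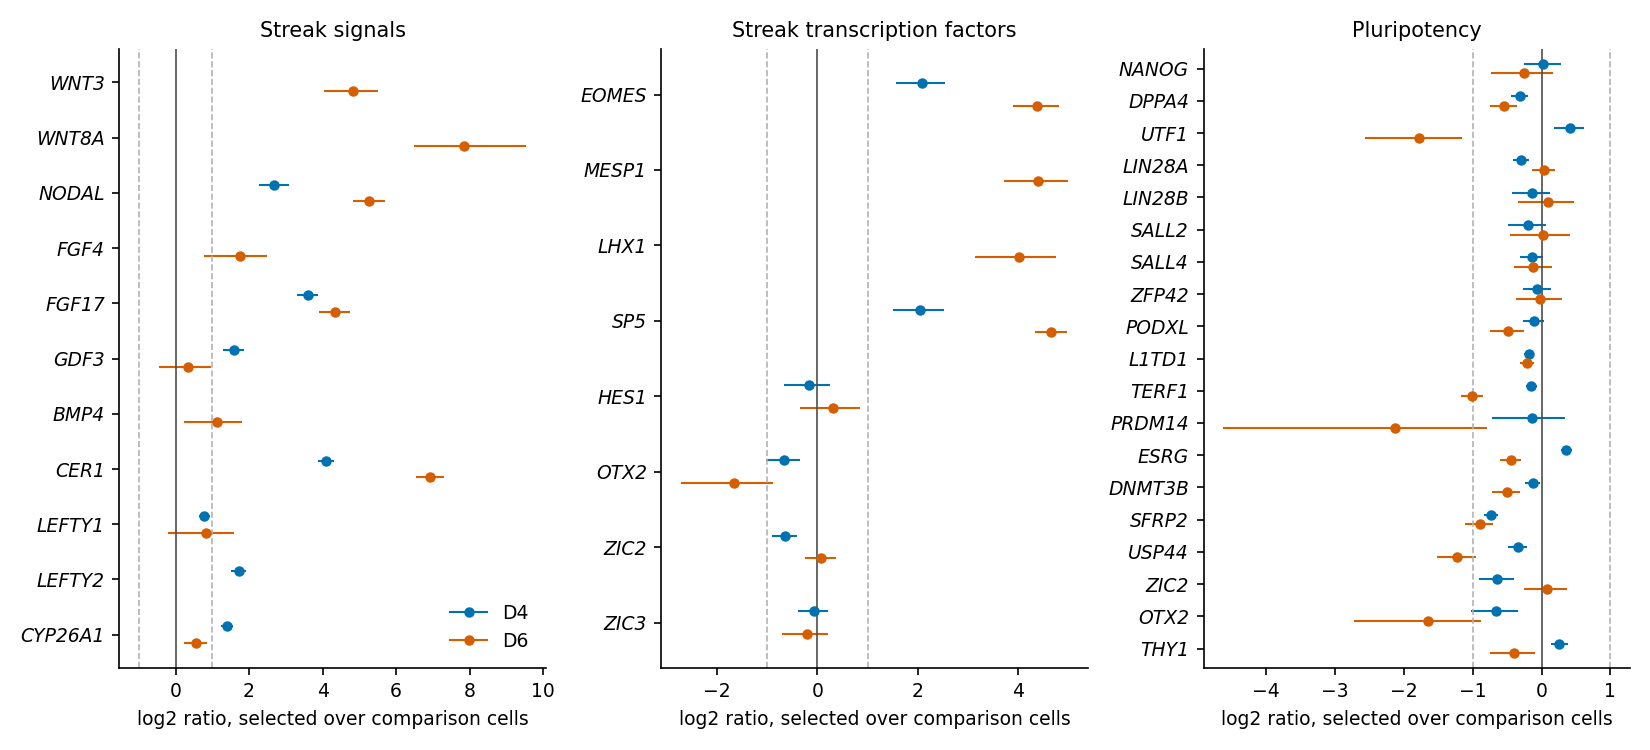
Log2 ratio of selected over comparison cells for each compared gene of the listed groups at D4 and D6, with dashed lines at a 2-fold difference. Genes under 10 CPM in comparison cells are shown only if high in selected cells, which places such genes of the streak lists to the right by construction; the pluripotency genes, at that level in comparison cells, have medians of -0.14 at D4 and -0.45 at D6.

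Several leading genes were also present in hypoblast-type cells, some of them at higher levels than in selected cells. *EOMES* was at 128 CPM in these at D4 and 175 at D6, *FGF17* at 313 and 477, *SP5* at 147 and 159.6, and *SERPINB9* at 116 and 131. *AC108052.1* was found in 68.9% and 78.8% of hypoblast-type cells against 35.0% and 44.2% of selected cells. *NODAL* was in 21.6% and 31.4% against 25.2% and 59.6%, and *WNT3* in 13.3% and 13.1% against 17.1% and 32.7%. With each cell thinned to the lowest depth kept, *NODAL* was in 9.38% and 14.4% against 8.94% and 21.2%. *WNT3* was then in 4.00% and 3.69% against 1.63% and 9.62%. After thinning, neither gene was thus in a larger share of selected cells at D4. *CER1*, which led at D4, was in 22.6% of hypoblast-type cells at D4 and 5.28% at D6, against 22.0% and 9.62% of selected cells. With cells thinned, *CER1* was in 13.3% and 2.75% against 11.4% and 7.69%, so it was not particular to the selected cells of D4. *MIXL1* was found in 17.9% and 36.9% of hypoblast-type cells. *TBXT* is 1 of the summed genes, so its share in selected cells follows in part from the rule, and no difference is concluded from it. *TBXT* was found in 3.00% of hypoblast-type cells at D6 and in 48.1% of selected cells, and in 1.00% and 15.4% with each cell thinned to the lowest depth kept. At D4 it was in 1.57% of them, within the interval for selected cells (2.44% [0.506, 6.96]), and in 13 of 3828 against 0 of 123 after thinning. Their median depth was 11145.5 UMIs at D4 and 10952.5 at D6. *AC131094.1* was found in 2.59% and 1.06%, and *WNT8A* in 0.157% and 0.139%. *MESP1* was at 3.34 CPM there at D6 against 32.5 in selected cells. The D6 selected cells without *GATA6* or *FOXA2* (50 cells) had log2 ratios over comparison cells of 4.37 for *EOMES*, 5.30 for *NODAL*, 4.71 for *SP5*, 3.67 for *FGF17* and 4.83 for *WNT3*, against 4.38, 5.27, 4.66, 4.35 and 4.82 with all 52. The same restriction at D4 left 2.71 for *CER1*, 2.32 for *NODAL* and 1.28 for *FGF17*, against 4.10, 2.69 and 3.59 with all 123.

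Cells with *HAND1* held more *MESP1*, *EOMES*, *LHX1*, *GATA6*, *WNT3* and *FGF17* at D6 than selected cells, and less *NODAL* and *SP5*. The 90 cells of D6 with at least 2 UMIs of *HAND1* and none of *SOX17* or *APOA2* held *MESP1* at 198 CPM, *EOMES* at 187, *LHX1* at 571 and *GATA6* at 194, against 32.5, 61.3, 20.4 and 2.41 in selected cells. *WNT3* was at 51.7 CPM in these against 26.5, and *FGF17* at 147 against 71.0. *NODAL* was at 29.2 CPM in these against 80.6, and *SP5* at 35.9 against 129.9. *AC131094.1* was at 1.67 CPM.

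Side by side, selected cells were a smaller part of kept cells at D6 (0.515%) than at D4 (1.34%), but the 40 D6 cells with a transcription factor were 0.396% of kept cells and the 26 of D4 were 0.284%, and those with *TBXT* were 0.248% and 0.0328%. Between these 40 and 26 cells the log2 ratio of D6 over D4 was 1.76 [1.09, 2.57] for *SP5*, 0.01 [-0.64, 0.68] for *EOMES* and 0.06 [-0.54, 0.68] for *NODAL*, and it was -1.28 [-1.78, -0.80] for *FGF17*, -1.91 [-2.35, -1.51] for *CYP26A1* and -0.93 [-1.25, -0.61] for *CER1*, whose UMIs were mostly in 1 cell of each day. The intervals of *EOMES* and *NODAL* span 0, while beyond counting error *SP5* was higher in the 40 D6 cells and *FGF17*, *CYP26A1* and *CER1* lower. Over all selected cells the values were 1.65 [1.04, 2.28] for *EOMES*, 1.43 [0.92, 1.94] for *NODAL* and 2.87 [2.34, 3.45] for *SP5*. They were 0.10 [-0.37, 0.54] for *FGF17*, -0.67 [-1.03, -0.34] for *CYP26A1* and 0.32 [0.02, 0.61] for *CER1*, whose sign thus turned. In comparison cells they were -0.65, -1.15, 0.26, -0.65, 0.17 and -2.49 in the same order. Each day is 1 library, so these are values of the libraries and not of the days.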

How the data were processed

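The authors deposited raw UMI counts for 36601 genes in the barcodes called by Cell Ranger (6.0.1 per the file headers, on hg38 per the labels), without normalization; the submitters' processing notes also name Seurat 4.0.1 and R 4.0.3. The 7 bisulfite libraries were not used here. Barcodes with 3430 to 27500 UMIs and at most 10% mitochondrial UMIs were kept. Counts were summed per class with exact Poisson intervals, ratios had 0.5 counts added and exact conditional binomial intervals, and shares had Clopper-Pearson intervals, all at 95%. Genes with a mean of at least 10 CPM over both classes were compared, and a difference was called at 2-fold. Gene lists were counted over genes at 10 CPM or more in comparison cells. Doublets, called by Scrublet in scanpy 1.11.5, were left out only in 1 alternative. Python 3.11.15, numpy 2.4.6, pandas 2.3.3 and scipy 1.17.1 were used, and the computation was tested on simulated data. Named genes were those of the rule, *SERPINB9*, 18 gene lists, and per day the 12 highest and 12 lowest ratios among compared genes at 20 CPM or more in the higher class and in at least 10% of its cells. Members and lists were chosen with earlier results of these data known. Some genes that this rule names are not reported here. No authors' comparison was used.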

Additional observations from a re-analysis of the deposited data

How the results depend on the processing

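Levels were recomputed under 23 alternatives, of which splitting the selected cells, applying the *SOX2* and *FN1* gates to them, leaving out the cell with most *CER1*, a limit of 10 CPM in comparison cells alone and leaving out cells with *GATA6* or *FOXA2* were chosen after seeing the data, as was leaving out the cell with most of a gene beside single levels. No paired analysis was possible because each day has 1 library. The share of kept cells stayed within its 95% interval, or a count past 2-fold within 1.5 times its value, in 75 of 120 repeats, and the log2 ratios of named genes stayed within their 95% intervals in 7576 of 8303. Of named genes past 2-fold with an interval away from 0, the direction held in every alternative for 27 of 34 at D4 and 46 of 48 at D6. Of listed genes past 2-fold, 8 of 17 at D4 and 16 of 30 at D6 were under 2-fold in at least 1 alternative other than the lower sum, which alone took 6 and 18 under it. Under the *SOX2* and *FN1* gates these were at D6 *ANXA3* (0.97), *BMP4* (0.51), *DUSP6* (-0.82), *FGFR2* (-0.63), *TERF1* (-0.59), *TFAP2C* (0.78) and *USP44* (-0.90). In the 12 D6 cells with *AC131094.1* alone, 13 of the 30 were under 2-fold. Counts past 2-fold rest on 123 cells at D4 and 52 at D6 and are not compared between days. With doublets left out, 121 genes were higher at D4 and 211 at D6, and with comparison cells matched on UMIs per cell 113 and 205.

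A sum of at least 1 gave a share of 4.08% at D4 and 2.14% at D6, with 46 and 27 genes higher and 1 and 0 lower. A sum of at least 3 gave 0.863% and 0.366%, with 51 and 170 lower. Without *AC131094.1* in the sum the shares were 0.142% and 0.317%, for 695 higher and 330 lower genes at D4, and 176 lower ones at D6. At D4 this turned the log2 ratios of *TFAP2C* (-0.23), *ANXA1* (-0.15), *FAM229B* (0.13) and *PTCH1* (0.018). That of *IL32* was -0.99, but *IL32* had no UMI in the 13 cells left, so no direction is shown.

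With the rule on cells thinned to the lowest depth kept and at least 1 UMI of *POU5F1*, the shares were 0.404% and 0.347%. Levels from thinned cells gave 303 higher and 171 lower genes at D4, against 956 and 396 at D6. A mean level of at least 5 CPM gave 204 and 87 at D4 and 403 and 219 at D6, and one of 30 CPM gave 53 and 1, and 73 and 23. With the limit on comparison cells alone the lower genes were 51 at D4, and at D6 107 were higher and 165 lower, while the median log2 ratio of the amnion list at D6 went from 1.31 to -0.13 and that of the streak factors from 2.17 to -0.067. With no filter the counts were 7753 and 1223, and 10826 and 1004, since genes of few UMIs entered.

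Cells with a transcription factor only were 0.284% of kept cells at D4, giving 345 higher and 171 lower genes, and the log2 ratio of *TFAP2C* (-0.022) turned. That of *IL32* was -2.0, but *IL32* had no UMI in these cells. This allows up to 6.27 CPM, above its level in comparison cells, so no direction is shown. Cells with *AC131094.1* alone were 1.06% at D4 and 0.119% at D6, with 42 genes lower at D4, and 842 higher and 397 lower at D6, where *UPK1A* (0.0022) turned. *FGF4* was at -0.71 in the D6 cells, where 3 counts are 17.8 CPM. As its level in comparison cells was below that, no direction is shown. The *SOX2* and *FN1* gates on selected cells gave 0.267% at D6, and at D4 *EOMES* (-0.10) and *RHOBTB3* (-0.22) turned. In D4 cells without *GATA6* or *FOXA2* they were -0.69 and -0.78. The cause of these changes was not tested. With 2210099 UMIs in selected cells at D4 and 831461 at D6, genes with no UMI there may reach 1.36 and 3.61 CPM.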

Other observations

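Some genes outside the named set were seen to differ on 1 or both days, and these were chosen after their values were seen. *LINC01356* was at 405 CPM in selected cells of D4 against 113 in comparison cells (log2 ratio 1.84), and at 769 against 66.8 at D6 (3.53). *PCDH10*, a protocadherin, was at 107 against 10.6 CPM at D6 (3.34). In hypoblast-type cells *LINC01356* was found in 95.1% at D4 and 93.9% at D6, against 95.1% and 86.5% of selected cells, and with cells thinned in 71.0% and 65.4% against 64.2% and 75%. *PCDH10* was at 105 CPM in the *HAND1* cells of D6. *HAS2*, *TNC* and *COL5A2* had log2 ratios of 1.73, 1.68 and 1.96 at D4 and 2.48, 2.53 and 2.23 at D6. *GAL* had log2 ratios of 1.65 and 2.21, and *NTS* was at 369 against 67.9 CPM at D6 (2.45). *TAGLN*, a smooth muscle actin-binding protein, was at 674 against 191 CPM at D4 (1.82).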
